A study of Mus with 21 samples.

Results

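The potassium channel genes of the mouse were examined in the brains of embryos heterozygous for Nipbl, for Wapl or for both. The set holds every gene whose symbol begins with Kcn, followed by 1 or 2 letters for the subfamily and a number for the member, as in Kcna1 or Kcnab1. This name pattern found 92 of the 55335 genes in the count table, and 90 of them passed the filter on low counts, which kept 30552 genes in all. Kcna10 had 0 counts in all 21 libraries, which allows a level of up to 0.00454 CPM (a gene's counts scaled to a fixed library total) over all libraries, and Kcnj1 had 5 counts. The libraries were made from poly(A) RNA of whole brains of female embryos at E17.5, with 1 library per embryo. The 5 WT embryos were Wapl +/+ and Nipbl +/+. The 3 Nipbl+/- embryos were Wapl +/+ and Nipbl +/delta, the 7 WaplΔ/+ embryos carried 1 deleted Wapl allele and were Nipbl +/+, and the 6 double heterozygotes carried both alleles. Both alleles are germline deletions present in every cell. The Nipbl allele was recombined in the germ line of the sire with Stra8-icre, and the Wapl allele, made with E2a-Cre, lacks the promoter and the first exons. The labels do not give litters, so the p-values measure the spread between these embryos.

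Potassium channels let potassium ions leave or enter a cell along their gradient, and in neurons they set the resting potential, end the action potential and limit repetitive firing. The voltage-gated (Kv) channels are tetramers of pore subunits, some of which (the electrically silent subunits) form no channel alone and change the properties of Kv2 channels. Inward rectifiers and two-pore-domain leak channels hold the membrane near rest, calcium- and sodium-activated channels respond to ions that enter during activity, and auxiliary subunits alter the trafficking and gating of the pore subunits. Nipbl loads the cohesin ring onto chromosomes and Wapl releases it.

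The depth was 25682566 to 35818767 counts per library. The targeted genes followed the labels: Nipbl was at 54.3% of the WT mean in Nipbl+/- and 54.8% in double heterozygotes, and Wapl was at 46.7% in WaplΔ/+ and 49.3% in double heterozygotes. The libraries fell into a set with low counts (0 to 6) and a set with high counts (52 to 106) of the mitochondrial gene mt-Nd3, with 3 WT, 3 Nipbl+/-, 2 WaplΔ/+ and 4 double heterozygous libraries in the low set. Results within these sets are given below, and the part of this split in the results was not tested beyond them. The labelled tissue showed its markers, with a summed level of 14 neuronal markers of 4048 to 4734 CPM in the 21 libraries. Several cell type marker lists also moved with genotype. In Nipbl+/- against WT, 5 of 14 neuronal, 7 of 10 astroglial, 5 of 8 oligodendrocyte lineage and 5 of 8 microglial markers were called lower, and 4 of 10 progenitor markers were called higher. Of all genes tested, 6.96% were called lower and 4.25% higher, and 11.6% were called lower among those with a mean of at least 1 CPM. Among the other lists, 2 of 8 endothelial markers were called higher, 2 of 10 pericyte and 1 of 6 meningeal markers lower, and 1 of 8 choroid plexus markers in each direction. In WaplΔ/+ 1 of 8 endothelial, 1 of 10 pericyte and 2 of 6 meningeal markers were called higher and 1 of 7 pituitary markers lower. Of all genes, 0.769% were called higher and 1.45% lower in WaplΔ/+. The pituitary call was Gh, which had 2110 counts (scaled to library size) in WT replicate 2 and 0 to 2 in the other WT libraries. It therefore rests on 1 WT library. Summed glial markers were at 1206 to 1285 CPM in WT and 935 to 1124 CPM in Nipbl+/-, and summed neuronal markers were at 4496 to 4734 and 4048 to 4453 CPM. In double heterozygotes 1 neuronal, 3 astroglial, 6 oligodendrocyte lineage and 1 microglial markers were called lower, and 1 progenitor and 1 choroid plexus marker higher. Of all genes, 2.46% were called lower and 0.812% higher there. Whether the marker calls hold with a library left out was not tested. In whole brain, fewer cells of a type and less RNA per cell cannot be told apart, and the part of these shifts in the potassium channel results was not tested.

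Nipbl+/- brains had less mRNA of many potassium channel genes, among them pore-forming, silent and auxiliary subunits. Of the 90 genes tested, 30 were called lower and 1 higher than in WT (edgeR quasi-likelihood test, adjusted P below 0.10 over all 30552 genes), where 6.96% of all genes tested were called lower and 4.25% higher. Of the 75 members that averaged 1 CPM or more over the libraries, 28 were called lower, against 11.6% of all genes at that level. The median log2 fold change was -0.15 over the members and -0.01 over all genes tested, and 60 of 90 members lay below 0. An unadjusted P under 0.05 was reached by 46 members, and by 20% of all genes. The 3 Nipbl+/- libraries all lay below the 5 WT libraries for 22 members (6.9% of all genes) and all above them for 2 members (6.54%), Kcnh4 and the G protein-gated inward rectifier subunit Kcnj5, which was not called (log2 fold change 0.22, adjusted P = 0.274). The summed level of the set was 2286 ± 44.4 CPM in WT (SD, n = 5) and 2094 ± 125 CPM in Nipbl+/- (SD, n = 3), as shown with the fold changes of all 90 genes.

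In WaplΔ/+ brains 2 of 90 members were called lower than in WT, among them Kcna1, where 1.45% of all genes were called lower. No member was called higher by edgeR or DESeq2 (0.769% of all genes), and 4 members were higher at an unadjusted P under 0.05. In either direction 22 members reached that P, and 15.6% of all genes did. The median log2 fold change of the members was -0.05, and that of all genes was -0.00. In the double heterozygotes 21 members were called lower (2.46% of all genes), and none higher by either tool (0.812% of all genes), with 4 members higher at an unadjusted P under 0.05. In either direction 37 members and 13.5% of all genes reached that P. Their median was -0.10, against 0.00 over all genes, and 64 of 90 lay below 0. The 6 double heterozygous libraries all lay below the 5 WT libraries for 11 members (2.29% of all genes). These 3 comparisons share the WT libraries, so their values below are given side by side and are not independent of each other.

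**Figure D1:**
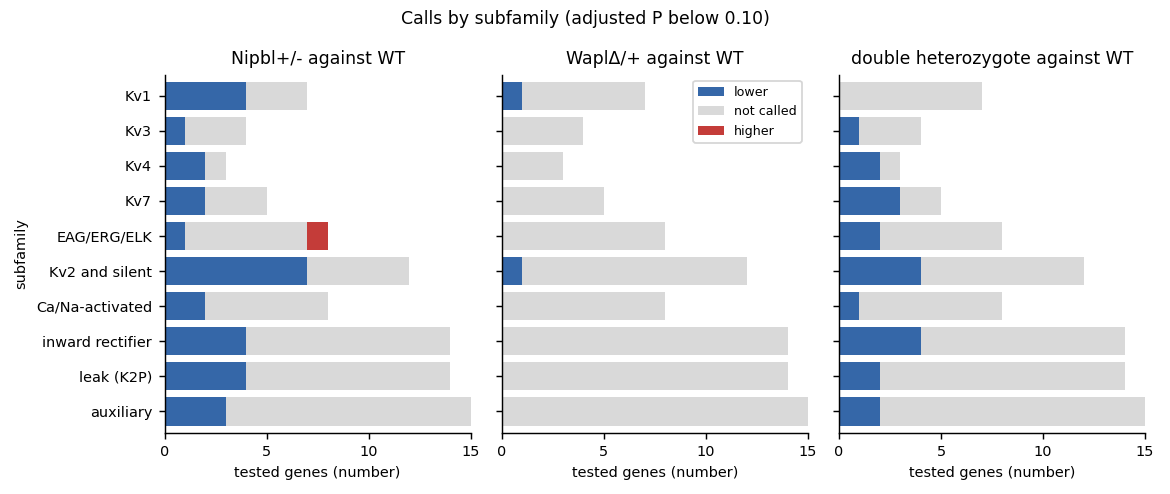
Number of genes (x axis) of each subfamily (y axis, with the Kv2 pore subunits and the silent Kv subunits in 1 row) that were called lower, called higher or not called in each genotype against WT at an adjusted P below 0.10. Lower calls in Nipbl+/- came from every row, with 4 of 7 Kv1 subunits and 4 of 14 inward rectifiers.

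Two-pore-domain subunits carry the background leak current of resting neurons, and their summed level in Nipbl+/- was 78.7% of the WT mean. It was 231 ± 7.90 CPM in WT (SD, n = 5), 182 ± 11.2 in Nipbl+/- (n = 3), 216 ± 14.7 in WaplΔ/+ (n = 7) and 197 ± 14.1 in double heterozygotes (n = 6). Of 14 tested, 4 were called lower in Nipbl+/- and 2 in double heterozygotes, with a median log2 fold change of -0.16 and -0.04. Kcnk9 alone made up 85.7 CPM of the sum in WT and was at 61.4% of its WT mean in Nipbl+/-. Kcnk9, at chr15:72501873-72548614 in GRCm38.p6, encodes an acid-sensitive leak channel that is imprinted and expressed from the maternal allele in brain, and it had the smallest P of all members. Its normalized counts (counts scaled by TMM to a common library size) were 2959, 2605, 2482, 2608 and 2824 in WT, and 1414, 1861 and 1687 in Nipbl+/-. They ran from 1769 over a median of 2524 to 2678 in WaplΔ/+, and from 1734 over 1897 to 2182 in double heterozygotes. Every Nipbl+/- and double heterozygous library was below every WT library, while the WaplΔ/+ libraries overlapped WT. The log2 fold changes of Kcnk9 were -0.71 (SE 0.0704, adjusted P = 2.8e-05) in Nipbl+/-, -0.20 (SE 0.079, adjusted P = 0.224) in WaplΔ/+ and -0.47 (SE 0.0615, adjusted P = 0.00039) in double heterozygotes.

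Kcnk2, a mechanosensitive leak channel, had counts of 1504, 1615, 1565, 1436 and 1454 in WT and 1343, 1286 and 1218 in Nipbl+/-, with no overlap. Its log2 fold change was -0.25 (SE 0.0492, adjusted P = 0.00434) in Nipbl+/-, 0.04 (adjusted P = 0.714) in WaplΔ/+ and -0.16 (adjusted P = 0.0851) in double heterozygotes. Its relative Kcnk10 was at -0.15 (adjusted P = 0.0549) and Kcnk3, another acid-sensitive channel, at -0.19 (adjusted P = 0.0678) in Nipbl+/-. Neither was called in the other genotypes, and DESeq2 did not call Kcnk3.

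Most Kv1 subunits are delayed rectifiers, found largely on axons. The summed level of all Kv1 subunits was 85.9%, 92.1% and 91.0% of the WT mean in Nipbl+/-, WaplΔ/+ and double heterozygotes. Of 7 tested, 4 were called lower in Nipbl+/-, 1 in WaplΔ/+ and none in double heterozygotes by edgeR, where 4 had an unadjusted P under 0.05. Kcna1, at chr6:126636463-126645801, had counts of 159.6, 124, 139, 131 and 151 in WT and 50.7, 91.4 and 105 in Nipbl+/-, again without overlap. In WaplΔ/+ they ran from 51.1 over a median of 87.2 to 135, and in double heterozygotes from 72.7 over 113 to 140.1, so that both groups overlapped WT. The log2 fold change of Kcna1 was -0.79 (SE 0.167, adjusted P = 0.00662) in Nipbl+/-, -0.69 (SE 0.17, adjusted P = 0.0591) in WaplΔ/+ and -0.34 (SE 0.141, adjusted P = 0.281) in double heterozygotes. Kcna2 lay at -0.38 (SE 0.0611, adjusted P = 0.000947), -0.19 (adjusted P = 0.183) and -0.14 (adjusted P = 0.482) in the same order. Its counts were 658, 720.2 and 672 in Nipbl+/- and 809 to 974 in WT. Kcna3, which like Kcna2 lies on chromosome 3, varied more between replicates, with counts of 97.7, 98.5, 50.1, 64.0 and 92.0 in WT and 21.9, 32.1 and 53.0 in Nipbl+/-. The highest Nipbl+/- library was above the lowest WT library, and the log2 fold change was -1.19 (SE 0.255, adjusted P = 0.00706). Kcna4 was at -0.23 (adjusted P = 0.0616) in Nipbl+/-. Kcnab1, the cytoplasmic beta subunit that assembles with Kv1 channels, had counts of 408, 384, 349.5, 380.3 and 352 in WT, 291, 277 and 259.6 in Nipbl+/- and 251 to 321 in double heterozygotes. All Nipbl+/- and double heterozygous libraries were below WT, and the log2 fold changes were -0.45 (SE 0.0746, adjusted P = 0.00114) and -0.40 (SE 0.0737, adjusted P = 0.00747), with -0.12 (adjusted P = 0.424) in WaplΔ/+.

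**Figure D2:**
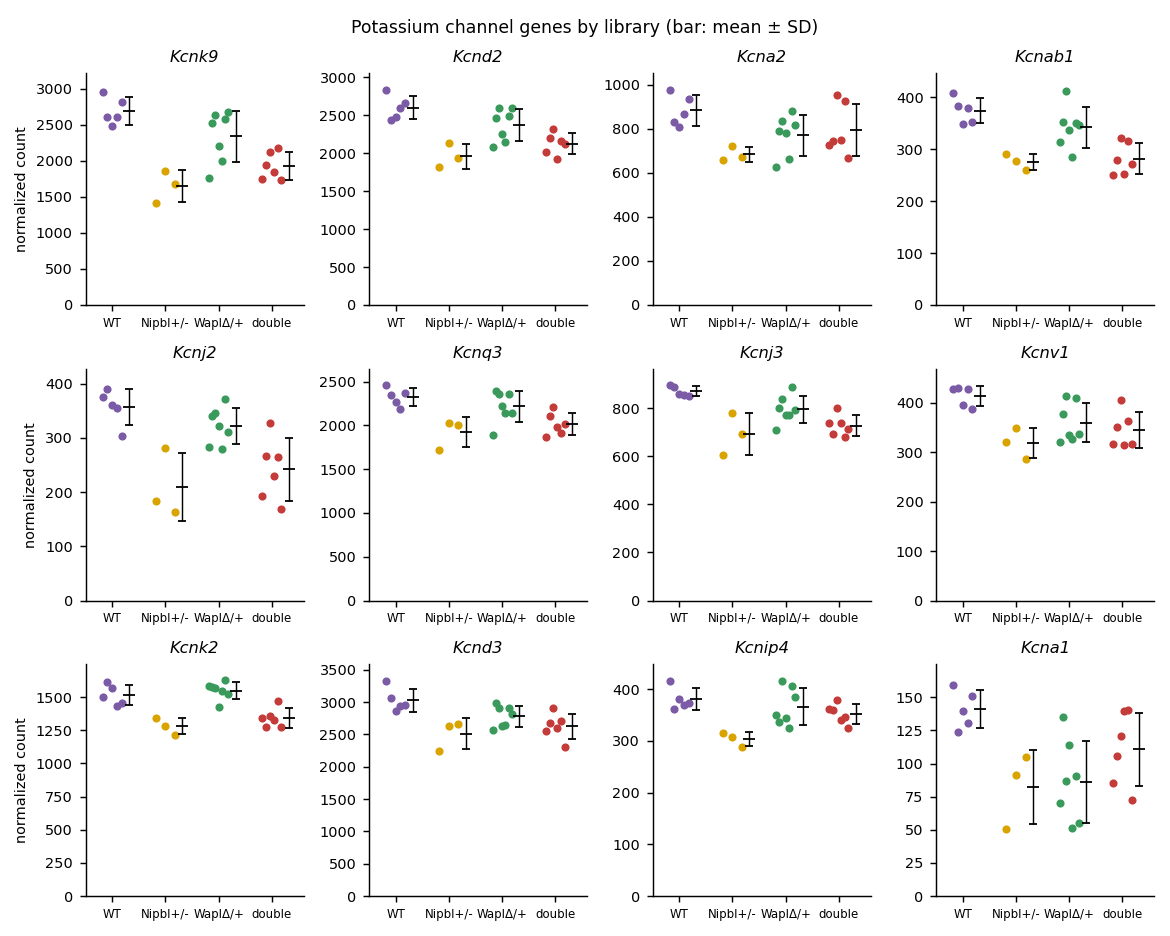
Normalized counts (y axis, linear from 0) in each of the 21 libraries (points) by genotype (x axis) for the 12 members with the smallest P in Nipbl+/- against WT; bars show the mean ± SD. For each of the 12 genes the 3 Nipbl+/- points lie below the 5 WT points, and for Kcnk9 they lie at 1414 to 1861 against 2482 to 2959.

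The Kv4 subunits carry the fast A-type current of dendrites. Of 3 tested, Kcnd2 and Kcnd3 were called lower in Nipbl+/- and in double heterozygotes, and Kcnd1 was at -0.13 and -0.18, not called. Their summed level was 194 ± 9.65 CPM in WT (SD, n = 5), 156 ± 12.9 in Nipbl+/- (n = 3), 179 ± 12 in WaplΔ/+ (n = 7) and 165 ± 9.66 in double heterozygotes (n = 6). Kcnd2 had counts of 2828, 2439, 2479, 2595 and 2655 in WT, 1811, 2138 and 1933 in Nipbl+/-, 2075 to 2594 in WaplΔ/+ with a median of 2461, and 1924 to 2321 in double heterozygotes with a median of 2139. WaplΔ/+ alone overlapped WT. Kcnd2 lies at chr6:21215346-21729805. The log2 fold changes of Kcnd2 were -0.41 (SE 0.0543, adjusted P = 0.000186), -0.13 (SE 0.0521, adjusted P = 0.237) and -0.28 (SE 0.0485, adjusted P = 0.00429) in Nipbl+/-, WaplΔ/+ and double heterozygotes. Kcnd3 was at -0.27 (SE 0.0559, adjusted P = 0.00492), -0.12 (adjusted P = 0.17) and -0.20 (SE 0.0513, adjusted P = 0.0577). An annotated antisense gene overlaps Kcnd3, and reads of the pair cannot be told apart unless counting used strand, which is not given in the sources used here.

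The Kcnip genes encode calcium-binding proteins that assemble with Kv4 subunits, and they did not move as a group. Kcnip4 was at 416, 361, 379.9, 369 and 374 counts in WT and at 314, 308 and 288 in Nipbl+/-, with a log2 fold change of -0.33 (SE 0.0699, adjusted P = 0.00638). It was at -0.05 (adjusted P = 0.77) in WaplΔ/+ and at -0.10 (adjusted P = 0.479) in double heterozygotes. Kcnip2 was called lower by the same log2 value of -0.26 in Nipbl+/- (adjusted P = 0.0727) and in double heterozygotes (adjusted P = 0.0326). Kcnip1 was at -0.07, 0.03 and 0.02 in Nipbl+/-, WaplΔ/+ and double heterozygotes, and Kcnip3 at 0.01, -0.07 and -0.15, with no call. Over all 15 auxiliary genes, 3 were called lower in Nipbl+/- and 2 in double heterozygotes.

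The silent subunits, which assemble with Kv2 subunits, had the lowest median log2 fold change of the 11 subfamilies in Nipbl+/-, -0.32 over 10 genes, of which 6 were called lower. In double heterozygotes 3 were called lower. Kcnv1 had counts of 428, 429.9, 396, 428 and 387 in WT and 321, 348 and 286 in Nipbl+/-, with log2 fold changes of -0.38 (SE 0.0745, adjusted P = 0.00353), -0.20 (adjusted P = 0.161) and -0.25 (SE 0.0689, adjusted P = 0.0684) in Nipbl+/-, WaplΔ/+ and double heterozygotes. Kcns3 was sparse, with counts of 44.8, 43.1, 30.4, 41.7 and 32 in WT, 18.9, 32.1 and 15.9 in Nipbl+/- and 18.3 to 28.5 in double heterozygotes, and its log2 fold change was -0.78 (SE 0.234, adjusted P = 0.0478) in Nipbl+/- and -0.70 (SE 0.167, adjusted P = 0.0376) in double heterozygotes. The double heterozygotes were all below WT for this gene, and a Nipbl+/- library overlapped WT. Kcns1, Kcns2 and Kcnf1 were at -0.46, -0.29 and -0.20 in Nipbl+/-, each called. Kcng3 was called in Nipbl+/- at under 10 counts in every library shown here (7.2, 5.1, 3.9, 5.8 and 5.0 in WT, and 0, 1.9 and 1.1 in Nipbl+/-), and DESeq2 did not make this call.

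The Kv7 subunits carry the M current, which limits repetitive firing and closes when muscarinic receptors are active. Of 5 tested, 2 were called lower in Nipbl+/- and 3 in double heterozygotes. Kcnq3 had counts of 2460.1, 2349.7, 2268, 2192 and 2364 in WT and 1723, 2030.4 and 2006 in Nipbl+/-, and its log2 fold change was -0.28 (SE 0.0526, adjusted P = 0.00246), with -0.07 (adjusted P = 0.55) in WaplΔ/+ and -0.20 (SE 0.0432, adjusted P = 0.0211) in double heterozygotes. Kcnq5 was at -0.42 (SE 0.112, adjusted P = 0.0265) in Nipbl+/-, with counts of 372, 650.2 and 537 against 648 to 745 in WT, and at -0.34 (SE 0.0707, adjusted P = 0.0173) in double heterozygotes.

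Kcnh4, an ELK subunit, was the only member called higher in any genotype against WT in the main edgeR fits, with no library left out. It had counts of 1615, 1471, 1692, 1471 and 1633 in WT and 1766, 1939 and 1837 in Nipbl+/-, without overlap, a log2 fold change of 0.22 (SE 0.0508, adjusted P = 0.0103). It was at 0.04 in WaplΔ/+ and at 0.04 (adjusted P = 0.89) in double heterozygotes, where it ran from 1217 over a median of 1648 to 1803. Kcnh1, an EAG subunit, was at -0.27 (SE 0.0785, adjusted P = 0.0437) in Nipbl+/-, -0.06 in WaplΔ/+ and -0.26 (SE 0.0693, adjusted P = 0.0577) in double heterozygotes. Kcnh3, of the ELK type, was at -0.25 (SE 0.0606, adjusted P = 0.0403) in double heterozygotes and at -0.19 (adjusted P = 0.129) in Nipbl+/-. The summed level of the Kv3 subunits of fast-spiking neurons was at 98.8%, 96.9% and 93.4% of the WT mean in Nipbl+/-, WaplΔ/+ and double heterozygotes. Of the 4 genes, Kcnc2 was called in Nipbl+/- (-0.28, adjusted P = 0.0492) and Kcnc4 in double heterozygotes (-0.18, adjusted P = 0.0488).

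Among the channels gated by calcium or sodium, 2 of 8 were called lower in Nipbl+/- and 1 in double heterozygotes. Kcnma1, the large-conductance BK channel, had counts of 2848, 2678, 2660.4, 2671 and 2561 in WT and 2041, 2509.6 and 2289.9 in Nipbl+/-, all below WT (log2 fold change -0.24, SE 0.0541, adjusted P = 0.00947), and it was at -0.15 (adjusted P = 0.11) in double heterozygotes. Kcnn3, a small-conductance SK channel, was at -0.23 (adjusted P = 0.0934) in Nipbl+/-. Kcnt2, a sodium-activated channel, was called in double heterozygotes (log2 fold change -0.32, SE 0.0785, adjusted P = 0.0394) with counts of 166 to 198 against 202 to 262 in WT. Its paralog Kcnt1 was at 0.04, -0.02 and -0.02 in Nipbl+/-, WaplΔ/+ and double heterozygotes.

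Of 14 inward rectifier genes tested, 4 were called lower in Nipbl+/- and 4 in double heterozygotes. Kcnj2 (chr11:111066164-111076825), a classical inward rectifier that stabilizes the resting potential, had counts of 376, 391, 361, 354 and 304 in WT and 183, 281 and 163 in Nipbl+/-, without overlap. In WaplΔ/+ it ran from 279 over a median of 321 to 371 and in double heterozygotes from 169 over 247 to 328, both overlapping WT. Its log2 fold changes were -0.77 (SE 0.132, adjusted P = 0.00132), -0.14 (SE 0.0733, adjusted P = 0.351) and -0.55 (SE 0.122, adjusted P = 0.0231). Kcnj3, a G protein-gated subunit, had counts of 895, 889.6, 857, 855 and 852 in WT and 606, 778 and 691 in Nipbl+/-. Its log2 fold changes were -0.33 (SE 0.0639, adjusted P = 0.00304), -0.12 (adjusted P = 0.191) and -0.25 (SE 0.0445, adjusted P = 0.00604). All double heterozygous libraries, at 679 to 801, were also below WT. Kcnj6, a subunit of the same G protein-gated channels, was called lower at -0.38 in Nipbl+/- (adjusted P = 0.0218) and -0.31 in double heterozygotes (adjusted P = 0.0654), and Kcnj4, a strong rectifier, at -0.50 (SE 0.129, adjusted P = 0.0525) in double heterozygotes.

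Several members are known mainly from cells other than neurons. Kcnj16, a glial and epithelial rectifier, was called at -0.42 (SE 0.142, adjusted P = 0.0831) in Nipbl+/- with overlapping libraries, at 68.6, 107 and 85.8 counts against 97.0 to 126 in WT. Its glial partner Kcnj10 was at -0.07, -0.00 and -0.12 in Nipbl+/-, WaplΔ/+ and double heterozygotes, beside the 7 of 10 astroglial markers called lower in Nipbl+/-. Kcnj8, the pericyte and smooth muscle ATP-sensitive subunit, was at 0.02, 0.15 (adjusted P = 0.217) and 0.15, and its 7 WaplΔ/+ libraries were all above WT (0.733% of all genes). The choroid plexus genes Kcnj13 and Kcne2 were at -0.19 and 0.24 in Nipbl+/-, not called, with summed choroid plexus markers at 453 to 907 CPM in WT. Kcnq1, best known from heart and epithelia, was at 0.01, 0.13 and -0.10, and an imprinted antisense gene overlaps it.

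**Figure D3:**
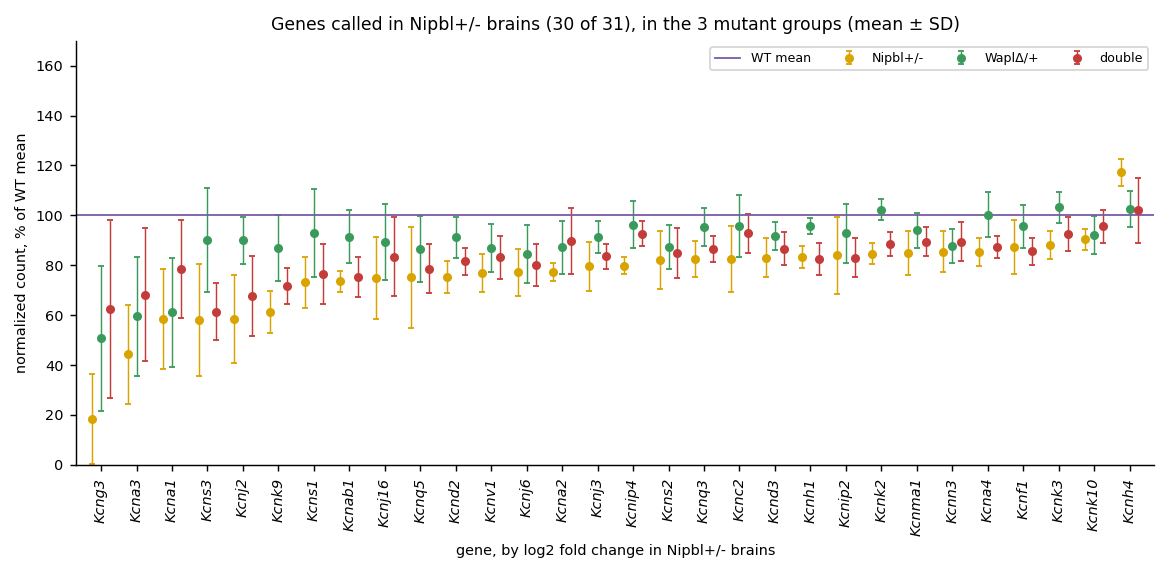
Mean normalized count as a percent of the WT mean (y axis), with error bars of ± 1 SD over libraries, for 30 of the 31 members called in Nipbl+/- (x axis), in Nipbl+/-, WaplΔ/+ and double heterozygotes. The genes were chosen by their Nipbl+/- values, which are shown as a description, and Kcnk9 lies at 61.4%, 86.9% and 71.7% of WT.

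The double heterozygotes were next compared with each single heterozygote, which asks whether a second allele changed the level. Against Nipbl+/-, edgeR and DESeq2 called none of the 90 members (0.00655% of all genes were called by edgeR), and 7 members had an unadjusted P under 0.05, where 4.12% of all genes did. Kcnk9 was higher by 0.23 on the log2 scale (SE 0.0899, adjusted P = 0.971). Against WaplΔ/+, 3 members were called lower (0.812% of all genes), among them Kcnk2 at -0.20 (SE 0.0418, adjusted P = 0.0273) and Kcnh1 at -0.21 (SE 0.053, adjusted P = 0.0964). A test of the interaction, the departure of the double heterozygotes from the sum of both single effects, called none of the members by edgeR (0% of all genes), with 15 members and 13.8% of all genes at an unadjusted P under 0.05. DESeq2 called 2 members, Kcna2 at 0.42 (adjusted P = 0.0741) and Kcnk9 at 0.43 (adjusted P = 0.0743), where it called 2.6% of all genes. The estimates by edgeR were 0.39 (SE 0.128, adjusted P = 0.204) for Kcna2, 0.40 (SE 0.133, adjusted P = 0.204) for Kcnk9, 1.11 (SE 0.311, adjusted P = 0.2) for Kcna1 and 1.35 (SE 0.441, adjusted P = 0.204) for Kcna3. Of the 15 members at an unadjusted P under 0.05, 12 estimates were above 0 and 3 below. Over all 90 members 49 were above and 41 below, with a median of 0.01. Over all genes tested 14095 were above and 16457 below, with a median of -0.02. The directions of all genes at that unadjusted P were not counted.

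Other genes of potassium handling were examined from fixed lists. Of 12 sodium-potassium pump and cation-chloride cotransporter genes, 7 were called lower in Nipbl+/-, 1 in WaplΔ/+ and 4 in double heterozygotes. Of all genes tested, 6.96%, 1.45% and 2.46% were called lower in the same order. Whether the calls of these lists hold with a library left out was not tested. The pump beta subunit Atp1b1 was at -0.43 in Nipbl+/- and -0.30 in double heterozygotes, and the cotransporter Slc12a2 at -0.33 and -0.16, all called. Of 19 genes for other partners and anchors of potassium channels, 5 were called lower in Nipbl+/- (Dlg2, Dpp10, Ank2, Abcc9 and Lrrc55), 3 in WaplΔ/+ (Ank2, Ank3 and Dlg2) and 2 in double heterozygotes (Dlg2 and Lrrc55). The scaffold gene Dlg2 was at -0.43, -0.25 and -0.26.

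Properties that the name pattern did not use were set side by side for the 30 members called lower in Nipbl+/- and the 59 not called, with no test. Genes called lower spanned a median of 77.5 kb of genomic sequence in RefSeq (GRCm38.p6), with a range of 1.97 to 1136 kb, and those not called 29.7 kb, with a range of 3.01 to 491 kb. Their median levels were 16.4 and 6.28 CPM, and the median SE of their log2 fold changes was 0.0745 and 0.111. The ranges overlapped for each property. On chromosome 15, which carries Nipbl, 4 of 6 members were called lower in Nipbl+/- (9.29% of all tested genes there) and 5 of 6 in double heterozygotes (5.17%). They lie 26.4 to 90.8 Mb from Nipbl. Kcnma1 on chromosome 14 lies 10.7 Mb from Wapl and was not called in WaplΔ/+.

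The shift of the set varied between embryos of a genotype. Over the 75 members with at least 1 CPM, the median log2 ratio to the WT mean was -0.22, -0.04 and -0.17 in the 3 Nipbl+/- libraries, and -0.02 to 0.03 in the WT libraries. In WaplΔ/+ it ran from -0.16 to 0.02 and in double heterozygotes from -0.20 to -0.04. Nipbl+/- replicate 2 and double heterozygote replicate 3 were the closest to WT of their groups.

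**Figure D4:**
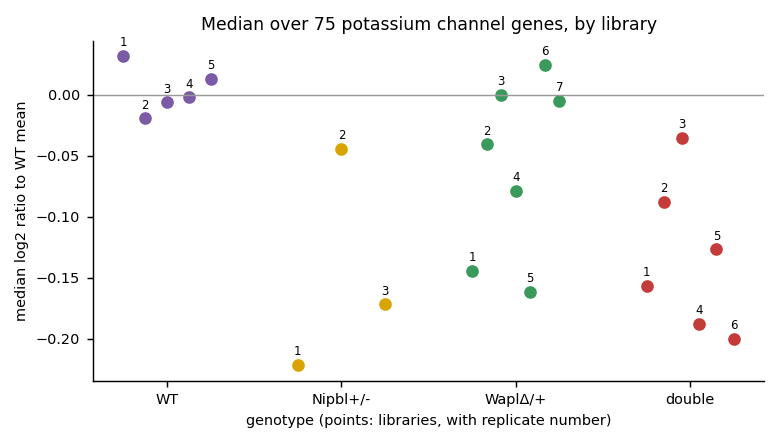
Median log2 ratio to the WT mean (y axis) over the 75 potassium channel genes with at least 1 CPM in each of the 21 libraries (points) by genotype (x axis). The 3 Nipbl+/- points lie at -0.22, -0.04 and -0.17, the 6 double heterozygous points between -0.20 and -0.04, and the WT points between -0.02 and 0.03.

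The counts of calls depended on single libraries. Without Nipbl+/- replicate 1, 17 members were called in Nipbl+/- (14 lower), where 5.98% of all genes were called, and without Nipbl+/- replicate 2, 46 were called, with 15.7% of all genes. The 14 lower calls that held in each of the 8 fits with a library left out were Kcnk9, Kcnd2, Kcna2, Kcnab1, Kcnj2, Kcnq3, Kcnj3, Kcnv1, Kcnk2, Kcnd3, Kcnip4, Kcna1, Kcna3 and Kcnma1, and the other 16 were lost without Nipbl+/- replicate 1. Kcnh4 also held. Within the low mt-Nd3 set, 21 members were called in Nipbl+/- (6.16% of all genes), 0 in WaplΔ/+ (0.154%) and 14 in double heterozygotes (2.2%). Within the high set 2 were called in WaplΔ/+ (0.91% of all genes) and 0 in double heterozygotes (0.00327%), where 2 libraries a group remained. Of the double heterozygote calls 8 held with each library left out, among them Kcnk9, Kcnd2, Kcnj3, Kcnab1, Kcnq5, Kcnq3 and Kcnj2, and the number called was 11 when WT replicate 1 was left out, 10 when WT replicate 4 was, and 12 without double heterozygote replicate 1, where 1.58%, 1.49% and 1.79% of all genes were called. The WaplΔ/+ call of Kcna1 was lost without WT replicate 1, 2, 4 or 5, by DESeq2, with the mt-Nd3 term, within either mt-Nd3 set, at a threshold of 0.05 and with all 4 groups in 1 fit. Both WaplΔ/+ calls were gone without WT replicate 1, 2 or 5, where 0.0426%, 0.0295% and 0.324% of all genes were called. In this comparison 1 call remained without WT replicate 4 (0.805% of all genes), and 4 were made without WT replicate 3 (2.04%). Without WaplΔ/+ replicate 2 or 6, 7 were made (5.02% and 2.99%). Of the calls against WaplΔ/+, Kcnk2 held in each of the 13 fits with a library left out, while Kcnh1 held in 2 of them. Of the 11 other alternatives, 4 kept the call of Kcnh1.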

How the data were processed

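RNA-seq libraries of 21 brains were analysed from the raw counts per gene that the authors deposited. Per the submitters' processing notes the tools were cutadapt 2.4, STAR 2.5.3a, featureCounts of Subread 1.6.4 and MultiQC 1.9, with mm10 (GRCm38.p6) as the genome. The annotation, the strand setting and the treatment of reads that match several places are not given in the sources used here, and 41 of the 92 members overlap another RefSeq gene. Intervals and limits cover counting error only. A Nipbl+/- library that the authors excluded was not analysed here.

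Genes with at least 10 TMM-normalized counts summed over the 21 libraries were kept. For each pair of groups only the libraries of that pair entered the fit, made with edgeR 4.0.16 in R 4.3.3 (quasi-likelihood test, two-sided), and the interaction on all 4 groups. P was adjusted by Benjamini-Hochberg over 30552 genes, and an adjusted P below 0.10 was a call. Alternatives were DESeq2 1.42.0, edgeR with the size factors of DESeq2, no filter or a mean of 1 CPM, a stricter threshold (0.05), the replicate number as a block, the mt-Nd3 set (above 20 counts or not) as a term or split, all groups in 1 fit, and leaving out each library. The fit without the block on the block's libraries was chosen after seeing the data.

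The members and gene lists were chosen with earlier results of these data known. Genes were named by rule: up to 12 called members with the smallest P per comparison, the 2 smallest P in each direction, the member of highest WT level per subfamily, 22 members of a fixed list, and called genes of the partner and ion transport lists. Other members were named after their values were seen, and some genes that the rule names are not reported here. Symbols matched RefSeq (GRCm38.p6) for all 92 members. In simulated data with 200 changed genes among 30552, 188, 193 and 190 were recovered for Nipbl+/-, WaplΔ/+ and double heterozygotes against WT. In the same order 40, 27 and 38 unchanged genes were called. In each comparison these unchanged genes were a larger share of the calls than the adjusted P threshold aims at. Recovery was not tested separately for small changes or low counts like those of many members. The recovered numbers therefore do not describe how many such changes would be found.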

Additional observations from a re-analysis of the deposited data

Results flagged for a closer look

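Of 120 groups tested (3 groups of 4 to 10 libraries for each of 40 named members), 3 held a library that stood apart from its group by Dixon's criterion, where chance flags about 1 in 20 groups, which is 6 here. Kcnh4 was at 1217 normalized counts in double heterozygote replicate 5, with the next library at 1592. Kcnip1 was at 1426 in WT replicate 3, with the next library at 1531. Kcnt2 was at 105 in WaplΔ/+ replicate 1, with the next library at 180.2.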

How the results depend on the processing

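Nipbl+/- gave 31 calls, and 20 with all 4 groups in 1 fit and 17 to 46 with a library left out. WaplΔ/+ gave 2, and 7 by DESeq2, 4 without the filter, 1 at a threshold of 0.05, 1 with the mt-Nd3 term, 0 in the low mt-Nd3 set, 0 with all groups in 1 fit and 0 to 7 with a library left out. Over all genes the share called in WaplΔ/+ was 2.22%, and 4.73% by DESeq2, 0.154% in the low mt-Nd3 set, 0.0229% with all groups in 1 fit and 0.0426% and 0.0295% without WT replicate 1 or 2. Double heterozygotes gave 21, and 0 in the high mt-Nd3 set, 11 with all groups in 1 fit and 10 to 31 with a library left out. Double heterozygotes against WaplΔ/+ gave 3 calls, and 6 by DESeq2, 1 at 0.05, 1 with the mt-Nd3 term, 0 in either mt-Nd3 set, 9 with all groups in 1 fit and 1 to 5 with a library left out. Over all genes the last comparison called 1.02%, and 2.05% by DESeq2, 0.0786% and 0.0949% in the low and high mt-Nd3 sets and 1.89% with all groups in 1 fit. With all groups in 1 fit, 5.43% of all genes were called in Nipbl+/- and 1.97% in double heterozygotes against WT. Against Nipbl+/- the double heterozygotes gave 0 calls among the members in every alternative run. The interaction gave 0 calls, 2 by DESeq2, and 0 to 2 with a library left out (Kcna1 and Kcna2 without double heterozygote replicate 6, Kcna1 without WaplΔ/+ replicate 2). Of all genes, DESeq2 called 2.6% for the interaction, and the fits without these libraries called 3.09% and 0.828%. With the replicate number as a block the counts were 24, 14 and 15 against WT, 0 against Nipbl+/- and 2 against WaplΔ/+, and the same libraries without the block gave 21, 13, 17, 0 and 1. Against WT, 6.28%, 6.53% and 2.04% of all genes were called with the block and 6.16%, 5.66% and 2.23% without it. Same-numbered libraries correlated at -0.23 to 0.33 in their deviations from the group means, and not every library correlated best with its own number. Double heterozygote replicate 1 did so with WaplΔ/+ (0.33, against a mean of -0.07 for other numbers) and with Nipbl+/- (0.25 against -0.13). Double heterozygote replicate 5 went the other way with WaplΔ/+ (-0.23 against 0.05). Such mixed correlations cannot decide whether same-numbered libraries share more than a number. No called gene changed sign in any alternative. The median log2 fold change of the members stayed between -0.17 and -0.12 in Nipbl+/-, -0.07 and -0.02 in WaplΔ/+ and -0.14 and -0.09 in double heterozygotes with each library left out. The cause of these changes was not tested. The high mt-Nd3 set held no Nipbl+/- library, so that alternative was not run there. Depth limits the sparse members: Kcng3 had under 10 counts per library.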

Other observations

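The genes that averaged 1 CPM or more around Kcnk9 and Kcnj2, both lower in every Nipbl+/- library than in any WT library, were looked up after those values were seen. Within 1 Mb of Kcnk9 on chromosome 15, Fam135b was at a log2 fold change of -0.34 (adjusted P = 0.0132, edgeR quasi-likelihood test), Ago2 at -0.20 (adjusted P = 0.0196) and Col22a1 at 0.31 (adjusted P = 0.0719) in Nipbl+/-. Of 8 neighbours these 3 were called, where 18.6% of all genes that averaged 1 CPM or more were called in either direction. Trappc9, which is adjacent to Kcnk9 at a distance of 41.0 kb, was at 0.05, and Peg13, an imprinted noncoding RNA gene within it, was at 0.09, with Chrac1 at 0.08, Ptk2 at 0.01 and Dennd3 at 0.04. In double heterozygotes Fam135b was at -0.23 (adjusted P = 0.0956), Ago2 at -0.10 and Col22a1 at 0.28, and in WaplΔ/+ Ago2 was at -0.25 (adjusted P = 0.046).

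Of 5 neighbours within 1 Mb of Kcnj2 on chromosome 11, 4 were called in Nipbl+/-, against the same 18.6% of all genes at that level. Abca9 was at -0.46 (adjusted P = 0.00159), Map2k6 at -0.28 (adjusted P = 0.0352), Abca5 at -0.24 (adjusted P = 0.0368) and Kcnj16, at a distance of 38.2 kb, at -0.42 (adjusted P = 0.0831) in Nipbl+/-. Abca8a was at -0.36 and was not called (adjusted P = 0.145). In double heterozygotes Abca9 was at -0.23 (adjusted P = 0.278), Abca5 at -0.09 and Map2k6 at -0.07.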
